A study of Caenorhabditis elegans with 45 samples.

Results

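The genes described here build the chromosome axis and the synaptonemal complex of meiotic chromosomes in the nematode Caenorhabditis elegans. They are syp-1, syp-2, syp-3 and syp-4, htp-1, htp-2, htp-3 and him-3, and rec-8, chosen by symbol for that role. These 9 genes stood among 19684 genes with at least 1 count and 16444 that passed the count filter, and all 9 passed it. Meiotic chromosomes are organised along a protein axis that contains cohesin rings and HORMA-domain proteins. Between the aligned axes of homologous chromosomes the synaptonemal complex assembles, which holds the homologs together while crossovers form. In C. elegans these proteins act in the germline, where loss of central-region or core axis proteins disturbs synapsis and produces embryos with missing or extra chromosomes.

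RNA was measured by bulk sequencing of polyadenylated transcripts from whole day 1 adult hermaphrodites, with 45 libraries in 15 groups of 3. The 7 F1 groups came from males of 7 wild isolates (CB4856, DL238, ECA701, ECA722, EG4348, QX1211, XZ1516) mated to N2 fog-2 mothers, which make no sperm of their own; these F1 are labelled wildtype. The 7 wild parental groups were self-fertilised animals of those strains, labelled wildtype. The remaining parental group was the laboratory strain N2, also self-fertilised per the growth protocol, although its genotype label names a fog-2 deletion and its strain label is CB4108. Males were removed from the plates, and most animals were gravid with embryos at harvest. Nothing in the labels says how many animals a library pooled, and p-values measure the spread between these libraries. Each strain is 1 isolate, so a strain difference stands for that isolate.

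Library totals ran from 24.45 to 90.52 M estimated counts (median 63.56 M), and no pair of replicates agreed within sampling noise (chi-square per degree of freedom 2.96 to 43.4). The gene fog-2, in TMM-scaled CPM (counts relative to the library total), was at 20.9 to 32.2 in F1 libraries, 31.7 to 46.8 in wild parental libraries and 36.9 to 45.3 in the libraries labelled N2. The last value goes against a fog-2 deletion, so these are called the libraries labelled N2 throughout, and a direction against N2 refers to those 3 libraries. Each F1 had a fog-2 mother and came from a mating, while the parental groups were described as self-fertilised. Hybrid genotype, fog-2 level and mating therefore cannot be told apart in an F1 minus parent difference. In whole animals, a lower level of a germline transcript can come from fewer germ cells or from less RNA per cell, and these cannot be told apart here.

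The genes lie on 3 chromosomes (WBcel235, the assembly also named ce11). Chromosome V holds syp-1 (16404274 to 16407701, plus strand) and syp-2 (5536487 to 5537717, plus). Chromosome I holds syp-3 (8663045 to 8664445, minus), syp-4 (6847511 to 6849923, plus) and htp-3 (4827072 to 4829791, plus). Chromosome IV holds htp-1 (5390189 to 5391557, minus), htp-2 (6419522 to 6420898, plus), him-3 (6977508 to 6978765, plus) and rec-8 (13349122 to 13353193, minus). The annotation places the coding gene F13A7.14 over part of syp-1 on the same strand, mrt-1 over part of syp-3 and prkl-1 over part of him-3, both on the opposite strand. In the salmon equivalence classes, at most 0.295% of the fragments of any of the 9 genes in a library also matched a transcript of another gene. The paralogs htp-1 and htp-2 were thus told apart by nearly all of their reads in those classes. Sharing in the kallisto counts, which give the levels and group tests, was not counted.

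All 9 genes were well above the detection limit in every library. On the TPM scale, which divides by transcript length and so allows genes to be compared, him-3 was the most abundant, at 95.4 to 129 TPM over the 45 libraries. It encodes a HORMA-domain protein of the axis core. Its near relative htp-1 was at 72.8 to 101 TPM, and syp-4, a central-region component of the synaptonemal complex, at 62.9 to 92.9 TPM. Another 4 genes had overlapping ranges: syp-2 47.9 to 66.2 TPM, htp-2 46.4 to 63.5, syp-3 40.2 to 61.9 and htp-3 45.6 to 61.8. The meiotic cohesin subunit rec-8 was at 41.1 to 54.3 TPM. The central-region gene syp-1 was the least abundant at 14.3 to 23.5 TPM, a range that met none of the others.

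The levels varied little between strains. The standard deviation over the 15 group means had a median of 0.11 on the log2 scale for the 9 genes and 0.30 for all 16444 genes. It was also 0.11 for the 3205 genes in the same range of levels, so this narrow spread is shared with other genes of that abundance. The ratio of the highest to the lowest group mean was widest for syp-1, with 23.0 TPM in the QX1211 F1 and 14.8 TPM in the XZ1516 parent. It was narrowest for syp-2, with 60.1 TPM in the ECA701 F1 and 50.4 TPM in the QX1211 parent.

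**Figure D1:**
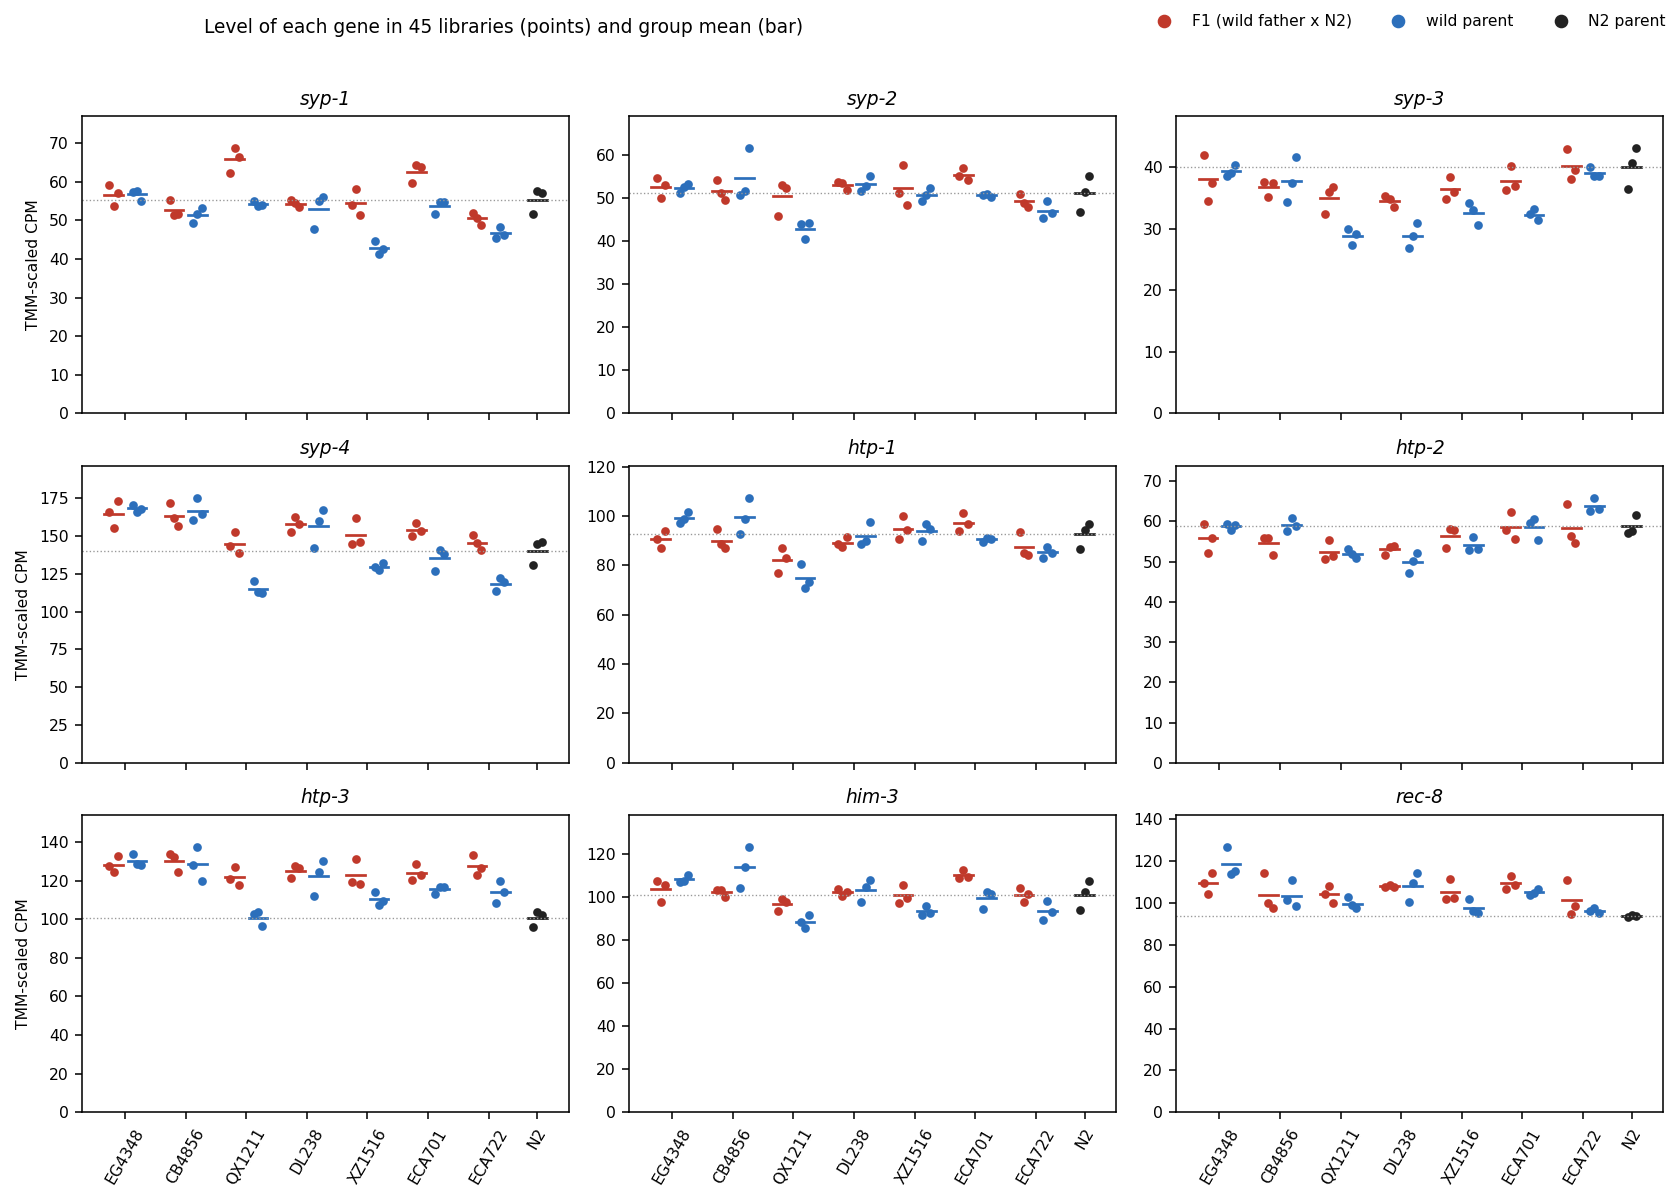
Level of each of the 9 genes in all 45 libraries, in CPM scaled by the trimmed mean of M-values (TMM), on axes that start at 0. Points are libraries, bars are group means of 3, each wild strain has its F1 (left) and its parental group (right), and the dotted line marks the mean of the libraries labelled N2; for htp-3 all 21 F1 libraries (118 to 134 CPM) lie above the 3 libraries labelled N2 (95.9 to 103.7 CPM).

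The parental strains differed in every one of these genes. All 9 were called by edgeR's quasi-likelihood test (Benjamini-Hochberg adjusted) for inequality of the 8 parental groups, with adjusted p from 2.29e-12 (syp-4) to 0.000163 (syp-2), where 88.1% of all genes tested were called. It also called all 9 among the 7 wild groups alone, where 86.3% of all genes were called. Both sets of calls remained in every alternative setting. Of 63 comparisons of a wild strain with the libraries labelled N2, 27 were called, 14 higher and 13 lower, where 40.9% of all such gene tests were called. The largest was 1.39-fold. The split was 10 higher and 19 lower with allele-aware gene totals and 9 higher and 17 lower with no count filter. Of the 27 calls, 19 held in all 51 alternative fits, which comprise the other settings and each library left out in turn.

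Among the central-region genes, syp-3 was lower in 4 wild strains and in none higher. It encodes a coiled-coil protein of the central region, whose SYP proteins depend on each other for loading. It was at 30.1, 27.4 and 29.1 CPM in the QX1211 parent and 27.0, 28.9 and 30.9 CPM in the DL238 parent, against 36.4, 40.7 and 43.1 CPM in the libraries labelled N2. All 6 of those wild libraries lay below all 3 libraries labelled N2. The share of all genes with such non-overlap was not counted. Of all gene tests of a wild strain against N2, 19.5% were called lower. The log2 differences were -0.48 ± 0.07 (SE) for QX1211 and -0.47 ± 0.07 for DL238 (adjusted p 3.8e-07 and 5.79e-07). They were -0.30 for XZ1516 and -0.31 for ECA701, again without overlap, while EG4348, CB4856 and ECA722 had -0.03, -0.09 and -0.04 and were not called. All 4 calls held in every setting.

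The gene syp-1, whose product spans the central region between the axes, was lower in 2 wild strains. It had 44.5, 41.3 and 42.5 CPM in the XZ1516 parent and 45.4, 48.3 and 46.1 CPM in the ECA722 parent, against 51.5, 57.6 and 56.9 CPM in the libraries labelled N2. The groups did not overlap, and the log2 differences were -0.37 ± 0.05 and -0.25 ± 0.05 (adjusted p 2.48e-07 and 0.00016). Here too the share of all genes without overlap was not counted. The gene syp-4 moved in both directions. It was higher in EG4348 (log2 difference 0.26) and CB4856 (0.25) and lower in QX1211 (-0.29) and ECA722 (-0.25), each with adjusted p of at most 0.000464, and all 4 calls held in every setting. A further call for syp-4 in DL238 (0.15, adjusted p 0.0245) was kept in 20 of 51 alternative fits, and was lost in 2 settings and without any of 29 libraries (adjusted p up to 0.303). For syp-2, only QX1211 was called (-0.26 ± 0.06, adjusted p 0.00093).

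Against the libraries labelled N2, htp-3 was higher in most wild strains, while htp-1, htp-2 and him-3 were called in few. HTP-3 is the HORMA-domain protein on which the other 3 depend for loading onto the axis. Its transcript was called higher in 6 of 7 wild strains, with log2 differences of 0.37 in EG4348, 0.36 in CB4856, 0.28 in DL238, 0.20 in ECA701, 0.18 in ECA722 and 0.13 in XZ1516. QX1211 had 0.00 and was not called. EG4348 parents had 134, 128 and 128 CPM, against 95.9, 103.7 and 102 CPM in the libraries labelled N2. No library of the 6 called strains fell within the range of the libraries labelled N2. Of all gene tests of a wild strain against N2, 21.4% were called higher. The share of all genes with such non-overlap in 6 strains was not counted. The XZ1516 call was kept in 9 of 51 alternative fits and was lost in 5 settings and without any of 37 libraries (adjusted p up to 0.29). The ECA722 call was lost with allele-aware gene totals (adjusted p 0.117) and without N2 parental replicate 1 (0.14, adjusted p 0.0545).

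The other 3 HORMA-domain genes were mostly close to the libraries labelled N2. HTP-1 and HTP-2 are nearly identical proteins, of which HTP-1 also takes part in the checkpoint that couples pairing to synapsis. In QX1211, htp-1 was lower by a log2 value of -0.31 ± 0.05, with 80.4, 70.8 and 73.1 CPM against 86.6, 94.5 and 96.6 CPM in the libraries labelled N2, and him-3 was lower by -0.19 ± 0.05 (adjusted p 1.33e-05 and 0.0015). In DL238, htp-2 was lower by -0.24 ± 0.05 (adjusted p 0.000558). The QX1211 value of htp-2 (-0.18, adjusted p 0.00687) lost its call without N2 parental replicate 3 (-0.14, adjusted p 0.0559). CB4856 had a higher him-3 level (0.17, adjusted p 0.00897), a call lost with no count filter (adjusted p 0.13) and without N2 parental replicate 1 (0.10, adjusted p 0.2) or CB4856 parental replicate 2 (0.15, adjusted p 0.0694) or 3 (0.11, adjusted p 0.115). The QX1211 parent was thus lower in 6 of the 9 genes, against 23.8% of all genes tested that were called lower in that strain.

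The proportion of the paralogs htp-1 and htp-2 differed between group means, but it was not tested. The ratio of htp-1 to htp-2 (TPM) was 1.86 ± 0.05 in the DL238 parent and 1.34 ± 0.01 in the ECA722 parent, and 1.59 ± 0.06 in the libraries labelled N2 (SD, n = 3 each). All DL238 parental libraries (1.80 to 1.89) were above, and all ECA722 parental libraries (1.34 to 1.36) below, those labelled N2 (1.53 to 1.65). These 2 parents are named because they had the highest and lowest means of the 15 groups. How many other gene pairs separate as much was not counted.

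For rec-8, the kleisin subunit of a meiotic cohesin, 4 wild strains were called higher, with log2 differences of 0.34 in EG4348, 0.21 in DL238, 0.17 in ECA701 and 0.15 in CB4856. EG4348 parents had 127, 114 and 115 CPM, against 93.2, 94.1 and 93.7 CPM in the libraries labelled N2. All 21 wild parental libraries (95.03 to 127 CPM) lay above these 3, as was so for 2.15% of all genes. Only the EG4348 call (adjusted p 5.69e-06) held in every setting. The DL238 call was lost without DL238 parental replicate 3 (0.15, adjusted p 0.0773), the ECA701 call without N2 parental replicate 1 (0.14, adjusted p 0.08) or ECA701 parental replicate 3 (0.14, adjusted p 0.0606), and the CB4856 call in 5 alternative settings, with adjusted p 0.0865 to 0.259, and without any of 39 libraries.

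Averaged over the 7 wild strains, 4 genes differed from the libraries labelled N2, where 41.9% of all genes were called, 19.8% higher and 22.2% lower. Higher were htp-3 (log2 difference 0.22 ± 0.04 SE, adjusted p 1.74e-05) and rec-8 (0.15 ± 0.04, adjusted p 0.00386), and lower were syp-3 (-0.25 ± 0.05, adjusted p 0.000114) and syp-1 (-0.12 ± 0.04, adjusted p 0.0118). The syp-1 call was lost without N2 parental replicate 2 (-0.09, adjusted p 0.134) or replicate 3 (-0.10, adjusted p 0.105). The remaining 5 genes had values between -0.06 (htp-2) and -0.01 (syp-4). All comparisons with N2 use the same 3 libraries, so a shared direction across strains is not independent evidence.

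**Figure D2:**
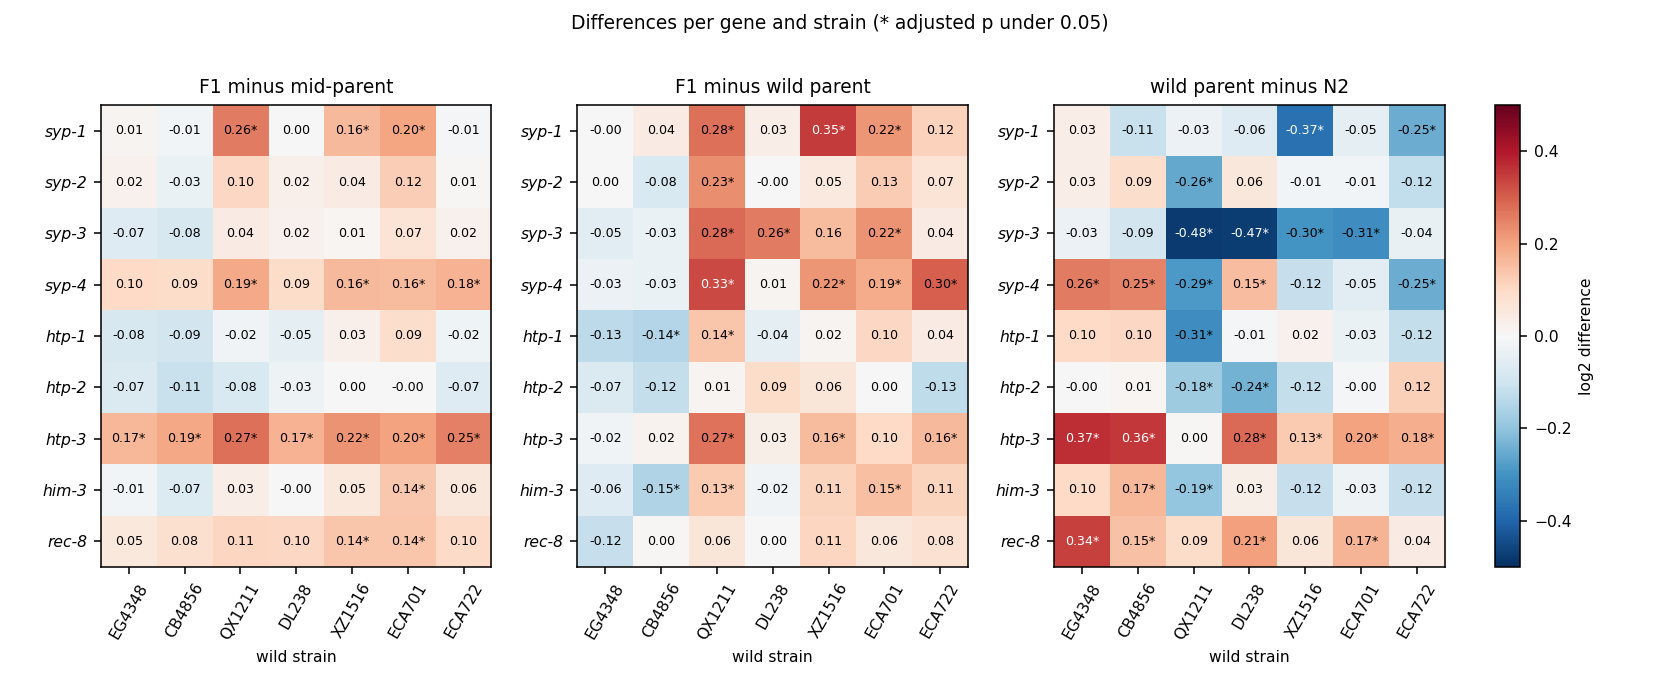
Log2 differences of each gene (rows) in each strain (columns) for F1 minus the mean of its parents, F1 minus wild parent, and wild parent minus the libraries labelled N2; stars mark an adjusted p under 0.05. The htp-3 row of the F1 minus mid-parent panel is positive and starred in all 7 crosses (0.17 to 0.27), and the QX1211 column of the wild parent panel holds 6 lower calls.

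In the F1 animals, htp-3 was above the libraries labelled N2 in all 7 crosses. Its level was 118 to 134 CPM in the 21 F1 libraries (median 126), 96.2 to 137 CPM in the 21 wild parental libraries (median 117) and 95.9, 103.7 and 102 CPM in the libraries labelled N2. Every F1 library was higher than every library labelled N2, as for 8.05% of all genes. The log2 differences against N2 were 0.28 (QX1211) to 0.37 (CB4856), with adjusted p of at most 4.05e-05, and all 7 calls held in every setting. A higher call in all 7 crosses was found for 7.16% of all genes. In all, 26 of 63 comparisons of an F1 with the libraries labelled N2 were called, 20 higher and 6 lower, where 38.3% of all such gene tests were called. Of these 26, 12 held in every setting. Besides htp-3 and rec-8, the higher calls were syp-4 in EG4348 (0.23), CB4856 (0.22), DL238 (0.17) and ECA701 (0.13), syp-1 in QX1211 (0.25) and ECA701 (0.17), and him-3 in ECA701 (0.12). The lower calls were syp-3 in QX1211 and DL238, htp-2 in QX1211 (-0.16) and DL238 (-0.15), htp-1 in QX1211 (-0.17) and syp-1 in ECA722 (-0.13). Of these, syp-4 and him-3 in ECA701 were kept in 14 and 11 of 51 alternative fits (adjusted p up to 0.315 and 0.333). Kept in 45 to 49 of 51 were syp-4 in CB4856 and DL238, syp-1 in ECA701 and ECA722, htp-1 in QX1211 and htp-2 in both crosses, with adjusted p up to 0.228 where lost.

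The same non-overlap with the libraries labelled N2 was seen for rec-8, by a small margin. The F1 libraries ran from 94.99 to 114 CPM, against 93.2 to 94.1 CPM in the libraries labelled N2. The log2 differences were called in 6 crosses, from 0.15 in CB4856 and QX1211 to 0.22 in EG4348 and 0.23 in ECA701, and the ECA722 F1 had 0.12 (adjusted p 0.1). The calls for EG4348, DL238 and ECA701 held in every setting. Those for CB4856 and QX1211 were kept in 22 and 20 of 51 alternative fits, and were lost in 2 settings each and without any of 27 and 29 libraries (adjusted p up to 0.496 and 0.23). The call for XZ1516 was lost without N2 parental replicate 1 (0.15, adjusted p 0.0638) or XZ1516 F1 replicate 2 (0.11, adjusted p 0.188).

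Set against the mean of both parents on the log scale, the F1 animals were higher wherever a call was made. Of 63 gene and cross pairs, 17 were called, all of them higher, where 35.8% of all such gene tests were called and 19.4% were called higher. The 17 were made up of htp-3 in 7 crosses, syp-4 in 4, syp-1 in 3, rec-8 in 2 and him-3 in 1. For syp-2, syp-3, htp-1 and htp-2 no cross was called. Being called higher in all 7 crosses, as htp-3 was, was found for 5.25% of all genes. All 7 mid-parents use the same 3 libraries labelled N2, whose htp-3 mean was the lowest of the 15 groups (47.2 TPM). Against the wild parent, htp-3 was called in 3 of 7 crosses, all higher (-0.02 to 0.27 over the 7). The mean of rec-8 was also lowest in the libraries labelled N2 (41.6 TPM), with 0 of 7 calls against the wild parent. The htp-3 differences from the mid-parent were 0.17 ± 0.04 (SE) in EG4348 and DL238 and 0.19 to 0.27 in the others. The EG4348 call was lost without EG4348 F1 replicate 3 (0.13, adjusted p 0.078) and the DL238 call without DL238 F1 replicate 2 (0.15, adjusted p 0.052).

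Of the 17 mid-parent calls, 7 held in every setting: htp-3 in the 5 other crosses and syp-1 in QX1211 (0.26) and ECA701 (0.20). For syp-4 the calls were 0.19 in QX1211, 0.18 in ECA722 and 0.16 in XZ1516 and ECA701. They were lost without QX1211 F1 replicate 2 (0.12, adjusted p 0.106), ECA722 F1 replicate 1 (0.13, adjusted p 0.083), XZ1516 F1 replicate 2 (0.10, adjusted p 0.204) or ECA701 F1 replicate 2 (0.14, adjusted p 0.0623). For rec-8 the calls were 0.14 in XZ1516 and ECA701, lost without XZ1516 F1 replicate 2 (0.09, adjusted p 0.282), XZ1516 parental replicate 2 or 3 (adjusted p 0.0514 and 0.0565), or ECA701 F1 replicate 2 (0.12, adjusted p 0.116). The him-3 call in ECA701 (0.14) was lost without the same ECA701 library (0.12, adjusted p 0.0762).

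Averaged over the 7 crosses, the F1 minus mid-parent difference was called for 4 of the 9 genes, where 61.9% of all genes were called and 31.7% were called higher. It was 0.21 ± 0.02 (SE) for htp-3 (adjusted p 1.79e-09), 0.14 ± 0.03 for syp-4 (1.61e-05), 0.10 ± 0.03 for rec-8 (0.000836) and 0.09 ± 0.02 for syp-1 (0.00212). The value of syp-1 was 0.06 (adjusted p 0.0763) without N2 parental replicate 1, and the other 3 calls held in every setting. The other 5 genes had values between -0.05 (htp-2, adjusted p 0.0741) and 0.04 (syp-2). The median over the 9 genes was 0.04 and over all genes -0.00.

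The comparison with the wild parents alone uses no library labelled N2. The mean of the 7 F1 groups exceeded the mean of the 7 wild strains by a log2 value of 0.15 ± 0.02 (SE) for syp-1, 0.14 ± 0.02 for syp-4 and 0.13 ± 0.03 for syp-3 (adjusted p 4.25e-08, 2.27e-07 and 6.01e-05). It did so by 0.10 ± 0.02 for htp-3 (adjusted p 1.4e-05) and 0.06 ± 0.02 for syp-2 (adjusted p 0.0307). These 5 calls stand beside 71.1% of all genes called and 37.7% called higher. The syp-2 call was lost when any of 8 libraries was left out, with values of 0.05 and adjusted p 0.0523 to 0.0729. The values for him-3 (0.04), rec-8 (0.03), htp-1 (-0.00) and htp-2 (-0.02) were not called.

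By cross, 19 of 63 F1 minus wild parent differences were called, 17 higher and 2 lower, where 35.6% of all such gene tests were called. With size factors from DESeq2 in place of TMM scaling, 24 were called and all were higher. The 2 lower calls were htp-1 and him-3 in CB4856 (-0.14 and -0.15), kept in 10 and 43 of 51 alternative fits. Of the 19 calls, 9 held in every setting. The QX1211 cross held 7 of the 19 calls, all higher, where 27.0% of all genes were called higher in that cross. Of these 7, htp-1 (0.14) and him-3 (0.13) were kept in 18 and 17 of 51 alternative fits (adjusted p up to 0.471 and 0.322) and syp-2 (0.23) in 49. There syp-4 was at 143, 153 and 139 CPM in the F1, against 120.3, 112.9 and 112 CPM in the QX1211 parent and 130, 145 and 146 CPM in the libraries labelled N2. The F1 libraries were above all those of the wild parent and within or near the range of those labelled N2 (log2 difference from the wild parent 0.33 ± 0.05, adjusted p 6.95e-06). How many of all genes separated from the wild parent in this way was not counted. In the same cross syp-3 was at 32.4, 36.0 and 36.9 CPM in the F1, against 30.1, 27.4 and 29.1 CPM in the wild parent and 36.4 to 43.1 CPM in the libraries labelled N2, so that its mean lay between those of its parents.

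For syp-3, the F1 lay between the parents wherever the wild parent was low. Its F1 minus mid-parent values were -0.08 to 0.07 over the 7 crosses and none was called. The F1 was called higher than the wild parent in QX1211 (0.28), DL238 (0.26) and ECA701 (0.22), and lower than the libraries labelled N2 in QX1211 (-0.20) and DL238 (-0.22). The ECA701 call was lost without ECA701 F1 replicate 2 (0.19, adjusted p 0.0552). The DL238 call against N2 was lost without N2 parental replicate 3 (-0.16, adjusted p 0.104), and the QX1211 call against N2 without QX1211 F1 replicate 1 or N2 parental replicate 2 or 3 (-0.19 to -0.14, adjusted p 0.057 to 0.148).

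Of the 9 genes, syp-1 was the single one called for a difference among the 7 crosses in the departure from the mid-parent (adjusted p 0.000279), where 23.6% of all genes were called. The call held in every setting, and the next lowest adjusted p was that of him-3 (0.0986). The departure was 0.26 ± 0.05 (SE) in QX1211 (adjusted p 1.79e-05), 0.20 ± 0.05 in ECA701 (0.000723) and 0.16 ± 0.05 in XZ1516 (0.00477). It lay between -0.01 and 0.01 in the other 4 crosses. QX1211, ECA701 and XZ1516 also had the most syp-1 reads specific to 1 allele, averaging 3111, 3567 and 3085 per F1 library. The other 4 crosses averaged 317 to 409. The part of this read difference in the departure was not tested. The QX1211 F1 had 62.1, 68.6 and 66.4 CPM, against 54.99, 53.8 and 53.9 CPM in the QX1211 parent and 51.5, 57.6 and 56.9 CPM in the libraries labelled N2, so that the F1 was above both parents with no overlap. The ECA701 F1 had 59.7, 64.2 and 63.6 CPM, against 51.6, 54.7 and 54.7 CPM in the ECA701 parent, and also exceeded every library labelled N2. How many of all genes lay above both parents without overlap in these crosses was not counted. In XZ1516 the F1 had 53.9, 58.2 and 51.5 CPM, against 44.5, 41.3 and 42.5 CPM in the wild parent, and overlapped the libraries labelled N2. The XZ1516 departure was 0.10 (adjusted p 0.154) without XZ1516 F1 replicate 2.

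Reads that carry a variant tell the 2 alleles of an F1 apart. Of the 63 gene and cross pairs, 33 averaged 10 or more reads specific to an allele in the F1 libraries and were tested, while 29 had none and syp-3 in XZ1516 had 11 wild and 6 N2 reads. Counts were checked in the parents, where 14 reads specific to N2 stood beside 64994 wild-specific reads of the 9 genes in the wild parental libraries (0.0215%). Over the 33 pairs the wild allele held 43.9% to 59.8% of the allele-specific reads, with a median of 49.9%. The edgeR quasi-likelihood test called 2 of the 33, where 11.6% of all tested gene and cross pairs were called, and 9 had an unadjusted p under 0.05.

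Both calls were in the ECA722 cross, where 9.76% of all genes tested were called. For htp-2, the wild allele held 56.5%, 61.0% and 64.3% of the reads in the 3 F1 libraries, and 562 wild against 378 N2 reads in all (59.8%, exact 95% binomial interval 56.6% to 62.9%, counting error only). The log2 ratio of wild to N2 allele was 0.62 ± 0.11 (SE, adjusted p 0.0261). For rec-8, it held 53.9%, 59.1% and 56.5%, with 970 wild against 749 N2 reads (56.4%, interval 54.1% to 58.8%) and a log2 ratio of 0.37 ± 0.08 (adjusted p 0.0418). All 3 libraries were above an even share for both genes. Leaving out ECA722 F1 replicate 2 or 3 ended both calls, with adjusted p 0.143 and 0.0697 for htp-2 and 0.19 and 0.121 for rec-8. In the parents these genes were not called between ECA722 and the libraries labelled N2 (log2 differences 0.12 and 0.04).

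For htp-3, the alleles were close to even in each of the 5 crosses that could be tested. The wild allele held 49.3% of reads in QX1211, 49.5% in CB4856, 49.6% in DL238, 49.7% in ECA701 and 49.9% in ECA722. In the cross with most reads, QX1211, 1272 wild reads stood against 1309 N2 reads (interval 47.3% to 51.2%), and the allelic log2 ratio was -0.05 ± 0.05 (SE). In CB4856, where the parents differed by 0.36, the ratio was -0.03 ± 0.07. The alleles of syp-1 could be tested in all 7 crosses. The wild allele held 53.8% of reads in QX1211 and 53.7% in ECA701, and 43.9% to 48.3% in the other 5, and no cross was called. In the QX1211 and ECA701 crosses the 3 libraries ranged from 53.5% to 54.3%, and both were called when only allele-specific reads were counted.

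**Figure D3:**
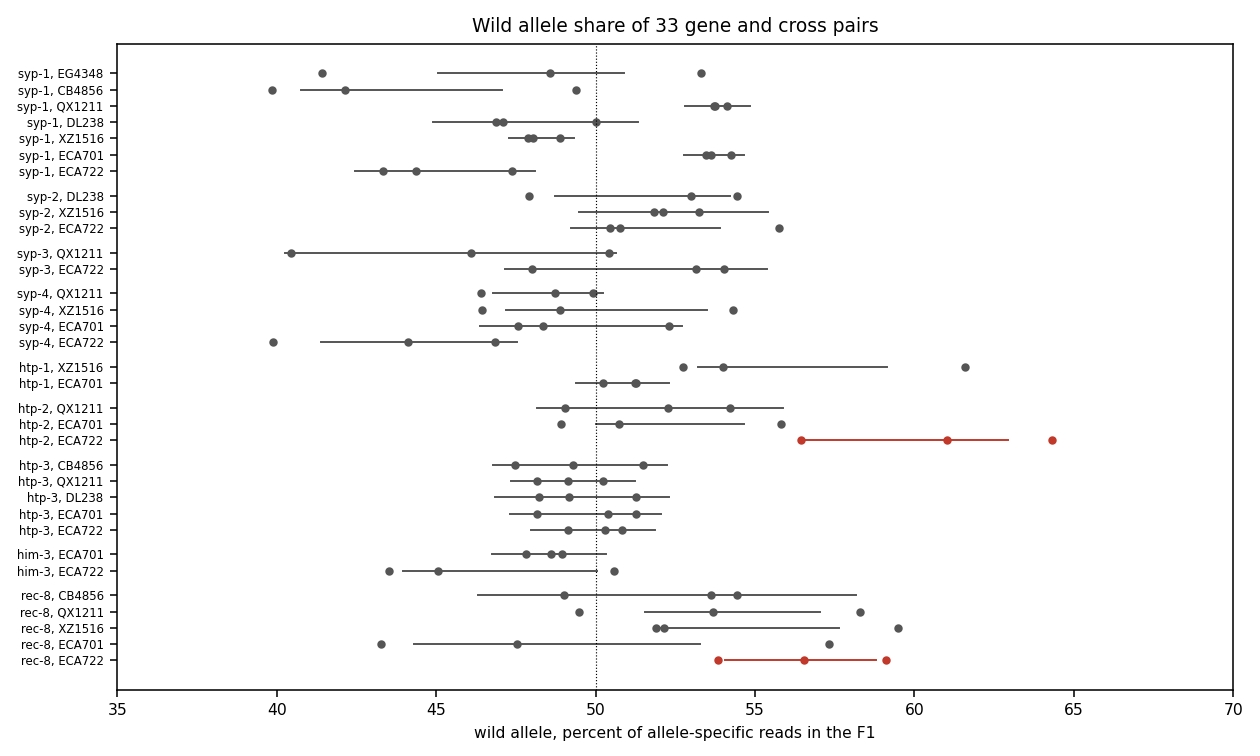
Share of allele-specific reads that came from the wild allele, in percent, for the 33 gene and cross pairs tested; points are the 3 F1 libraries, lines the exact 95% binomial interval of the pooled reads (counting error only), and the dotted line marks an even share. The 2 called pairs, htp-2 and rec-8 in ECA722 (59.8% and 56.4%), are red, and the 5 htp-3 pairs sit between 49.3% and 49.9%.

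The parental difference was then compared with the allelic difference in the same cross; their difference is called the trans difference here. It was called for 4 of 33 pairs, where 15.1% of all tested pairs were called, and 12 had an unadjusted p under 0.05. In ECA722 it was -0.53 ± 0.11 (SE) for htp-2 (adjusted p 0.0113) and -0.35 ± 0.08 for rec-8 (adjusted p 0.0148). In CB4856 it was 0.36 ± 0.09 for htp-3 (adjusted p 0.0315), and in ECA701 -0.27 ± 0.08 for syp-1 (adjusted p 0.0467). The htp-2 call held in every setting, and the rec-8 call was lost without ECA722 parental replicate 3 (adjusted p 0.0503). The htp-3 call was lost when any of 7 of the 9 libraries of the cross was left out (0.30 to 0.39, adjusted p 0.0568 to 0.0889), and the syp-1 call for 8 of 9 (-0.28 to -0.23, adjusted p 0.0708 to 0.115). In the other crosses the trans difference of htp-3 was 0.28 in DL238 (adjusted p 0.0998), 0.17 in ECA701, 0.09 in ECA722 and 0.03 in QX1211.

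Across the 15 group means the 9 genes did not move as a single block. Pearson correlations between pairs of genes, on log2 CPM with n = 15 groups of which each F1 shares alleles with its parents, ran from -0.18 (syp-1 with htp-2) to 0.88 (syp-4 with him-3), with a median of 0.41. The highest values, 0.835 to 0.88, were of pairs among syp-2, syp-4, htp-1 and him-3, followed by syp-4 with htp-3 (0.81). The genes whose group means most resembled the average profile of the 9 were pinn-4 (r = 0.95), acdh-13 (0.94), sut-6 (0.94), lpl-1 (0.94) and F25H8.2 (0.92), each over 15 groups. The average scaled level of the 9 genes was highest in the EG4348 parent and lowest in the QX1211 parent.

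Other genes of meiotic prophase were mostly higher in the F1, whereas 4 of the 9 genes were called higher than the mid-parent (median 0.04). Of 72 names in 6 lists, 70 were matched and tested, and the mean F1 minus mid-parent difference was called for 57, 56 higher and 1 lower, with a median of 0.12. Over all genes tested, 31.7% were called higher and 30.2% lower in this contrast, and the counts of each list below stand beside those shares. Beyond the genes described above, the other central-region proteins syp-5 and syp-6 were higher (0.19 ± 0.03 and 0.15 ± 0.02 SE). Of the Skp1-related central-region components, skr-1 was lower (-0.06 ± 0.01) and skr-2 had 0.05 and was not called; these 2 are close paralogs whose reads the authors' counting could split. All 7 matched cohesin and cohesin-loader genes were higher. Among them were scc-2, which loads cohesin (0.16), wapl-1, which releases it (0.15), and the kleisins coh-3 and coh-4 (0.12 and 0.16), again close paralogs. The names smc-1 and pqn-85 of this list were not matched to a gene.

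Among axis and synapsis regulators 10 of 14 were higher and none lower. The largest values were those of plk-2, a Polo-like kinase acting at pairing centres (0.29 ± 0.03), and atm-1, a DNA damage kinase (0.27 ± 0.04). Of the pairing genes 7 of 9 were higher, including sun-1, a nuclear envelope protein that links chromosomes to the cytoskeleton (0.20), and prom-1 (0.20). The list also holds htas-1, a histone variant of sperm, which was at 0.32 to 1.62 CPM in the parental groups and was not called (0.23). Of the genes for double-strand breaks 12 of 13 were higher, with him-5 (0.22) and rec-1 (0.21) leading. For him-5 the ECA701 parent was at 0.586 CPM, against 20.5 CPM in the libraries labelled N2. The mid-parent is a mean on the log scale, so a nearly absent transcript in a parent lowers it. The part of that cross in the him-5 value was not tested. Of the crossover genes 18 of 23 were higher, with zhp-4 (0.22), the cyclin cyb-1 (0.20) and rmh-1 and him-6 (0.19 each) leading.

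The parental strains differed more in some of these genes than in any of the 9. The mean of him-5, which promotes breaks on the X chromosome, was 21.1 CPM in the CB4856 parent and 0.586 CPM in the ECA701 parent. For coh-4 it was 42.6 CPM in CB4856 and 14.4 in XZ1516, and for chk-2, the kinase that starts pairing, 26.5 in EG4348 and 12.6 in XZ1516. The adjusted p of the parental equality test was at most 2.7e-13 for each. Among the 9 genes the widest range of parental means was that of syp-4, 0.55 on the log2 scale.

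Markers of the germline and of other tissues were compared for the mean F1 minus mid-parent difference. The shares over all genes were again 31.7% higher and 30.2% lower. Of 18 general germline markers 16 were higher in the F1 than the mid-parent (median 0.19), and of 14 oocyte markers 13 were (median 0.19). Their summed level was 5466 to 6213 CPM in F1, 4785 to 5857 CPM in wild parental and 4810 to 5016 CPM in libraries labelled N2 for the germline list. For the oocyte list it was 13172 to 15703 CPM in F1, 11053 to 15518 CPM in wild parental and 11340 to 11667 CPM in libraries labelled N2. Both lists were lowest in the QX1211 parent, which was also the group with the lowest sum of the 9 genes. Both were highest in the ECA701 F1, while the sum of the 9 genes was highest in the EG4348 parent. Of 38 sperm markers, 20 were higher and 0 lower in the F1 (median 0.49), with 2 under 1 CPM in every library, and their sum was 135 to 537 CPM in F1, 144 to 464 CPM in wild parental and 263 to 316 CPM in libraries labelled N2. Of 9 neuron markers 6 were lower and 1 higher (median -0.35), and of 7 hypodermis markers 6 were lower (median -0.41). Of 13 early embryo markers 1 was higher and 3 were lower, of 8 muscle markers 1 was lower, and of 11 intestine markers 6 were higher and 5 lower. The part of the germline share of the animal in the differences of the 9 genes was not tested.

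**Figure D4:**
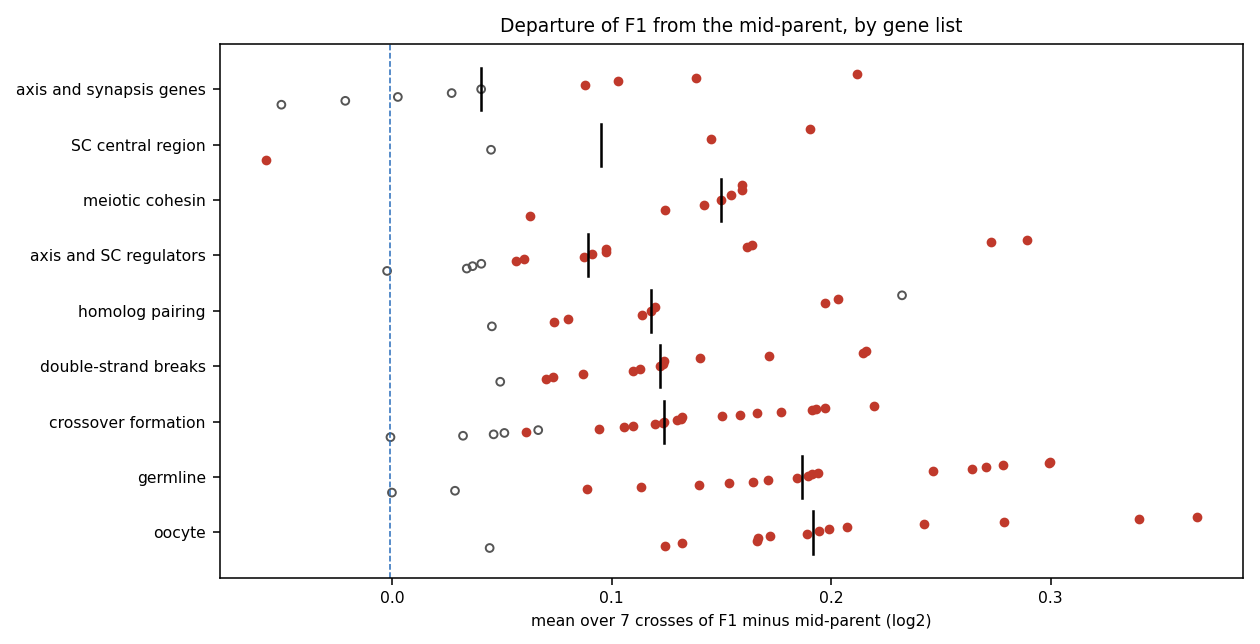
Mean over the 7 crosses of F1 minus mid-parent (log2) for each gene of the 9 axis and synapsis genes, the 6 meiotic lists and the germline and oocyte marker lists. Filled red points have an adjusted p under 0.05, open points do not, black bars are list medians (0.04 for the 9 genes, 0.19 for germline and oocyte markers), and the dashed line is the median of all genes tested.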

How the data were processed

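Per the labels' protocols, RNA of whole worms was extracted in 3 batches with 1 replicate per strain in each, and the libraries were strand-specific; batches are not tied to replicate numbers. Per the submitters' processing notes, Trimmomatic 0.39, FastQC, kallisto, Salmon 1.4, DESeq2 1.42.0 and the build ce11 were used, without a version of kallisto. Estimated counts per transcript from kallisto, as deposited by the authors, were summed per gene and rounded; F1 files carry the wild parent's transcript lengths. Allele tables deposited by the authors hold expected counts from salmon and emase-zero for each gene and allele; they also deposited salmon equivalence classes with whole counts, from which allele-specific reads were taken. In these files the libraries labelled N2 have QX1211 as second allele and the EG4348 crosses a strain named EG4349. TPM was taken from the deposited kallisto files. A deposited log2 variance-stabilised matrix was not used, and 0 columns lacked a sample.

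Gene totals were fitted with edgeR 4.0.16 in R 4.3.3 (quasi-likelihood test, TMM, default count filter, 45 libraries, 15 group means, 30 residual degrees of freedom), with Benjamini-Hochberg adjustment over 16444 genes and a threshold of 0.05. Alleles were tested per cross with the library as a term, for genes averaging 10 or more allele-specific reads per F1 library. The trans difference used the 9 libraries of a cross. Models were tested on simulated data. CPM is TMM-scaled. Reads without molecular identifiers are not independent molecules, and intervals cover counting error at 95%. Genes outside the 9 were named by size of parental range and of F1 minus mid-parent, up to 4 per list and rule, and the 5 most similar genes by Pearson r with the mean scaled profile. The 9 genes and all lists were chosen with earlier results of these data known. Alternatives were no count filter, DESeq2 size factors, the DESeq2 test, only the groups compared, allele-aware gene totals, a replicate block, and each library left out; for alleles, a minimum of 30 reads and allele-specific reads only.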

Additional observations from a re-analysis of the deposited data

Results flagged for a closer look

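The departure of the F1 from its mid-parent differed among the 7 crosses for syp-1 (edgeR quasi-likelihood test of the difference itself, adjusted p 0.000279). Of all genes tested, 23.6% were called for this difference. The F1 was higher than the mid-parent by a log2 value of 0.26 in QX1211, 0.20 in ECA701 and 0.16 in XZ1516, and by -0.01 to 0.01 in the other 4 crosses. The XZ1516 call was lost without XZ1516 F1 replicate 2 (0.10, adjusted p 0.154). QX1211, ECA701 and XZ1516 also had the most syp-1 reads specific to 1 allele (3085 to 3567 per F1 library, against 317 to 409). The part of this in the departure was not tested.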

How the results depend on the processing

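Over the alternative settings, 1018 results stayed on their side of the threshold, 47 lost a call, 8 gained one and 8 changed sign. Called allele pairs were 4 with the DESeq2 test and 7 with allele-specific reads only, against 2, and called trans differences 7 with DESeq2, against 4; the cause was not tested. The sign changes were of uncalled values near 0. For syp-3 the mean F1 minus mid-parent was -0.00032 with no count filter and -0.00658 with allele-aware totals. For the mean F1 minus mean wild parent, htp-1 was 0.0115 with no filter, 0.0199 with DESeq2 size factors, 0.01995 with the DESeq2 test and 0.00418 with allele-aware totals, and htp-2 was 0.00219 and 0.00217 with DESeq2 size factors and test.

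With 1 library left out, calls were 24 to 32 for wild strain minus N2, 19 to 26 for F1 minus N2, 15 to 22 for F1 minus wild parent, 14 to 18 for F1 minus mid-parent, and 9 to 9 for both equality tests. They were 3 to 4, 3 to 5 and 4 to 6 for the means of wild minus N2, F1 minus mid-parent and F1 minus wild, 1 to 2 for the difference among crosses, 0 to 2 for alleles and 2 to 10 for trans differences. The 0 arose without ECA722 F1 replicate 2 or 3, the 10 without N2 parental replicate 1, and the 2 without N2 parental replicate 2 or 3.

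Uncalled means that changed sign with 1 library left out ranged as follows. Wild minus N2 was -0.106 to 0.0234 for syp-2, -0.0709 to 0.022 for syp-4 and -0.0875 to 0.021 for him-3. F1 minus mid-parent was -0.0347 to 0.0307 for syp-3 and -0.00389 to 0.0494 for him-3. F1 minus wild was -0.0101 to 0.0104 for htp-1.

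With a replicate block, calls were 29 for wild strain minus N2, 26 for F1 minus N2, 20 for F1 minus wild parent, 17 for F1 minus mid-parent and 6 for the mean F1 minus wild. The numbers were not taken to pair libraries, since 28.6% of 315 same-numbered pairs had a correlation over 0.1 (median 0.0254). Of 45 libraries, 25 correlated best with their own number, where an even split over the 3 numbers gives 15, a hint from the data and not from the design. The number of allele-specific reads limits the allele tests.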
